A study of Mus musculus with 16 samples.

Results

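The 9 uninjured mice of the series were divided by how much of their listed transcript abundance came from immunoglobulin genes. The rest of the transcriptome was compared between the classes. The immunoglobulin share of a mouse was the TPM (transcript abundance relative to the whole library, corrected for transcript length) of its immunoglobulin heavy, kappa and lambda genes and of *Jchain*, as a percent of all TPM listed for that mouse. Libraries with a share of 20% or more formed the high class (6 mice) and the others the low class (3 mice), out of 16 mice in the whole series. The share chose the classes, so its values and those of immunoglobulin genes are given as a description with no test.

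RNA was sequenced from EpCAM+ cells that had been sorted by flow cytometry from digested distal colonic mucosa. All mice carried floxed *Tnfr2* alleles. The 4 controls were Tnfr2-f/f without Cre, and the 5 mice labelled knockout were Vil1::Cre;Tnfr2-f/f, in which the villin promoter drives Cre in intestinal epithelium. They were given water for 6 days and dissected on day 12 by the labels, while the study's methods place uninjured mice at d 0 and give an age of 8 weeks. The 7 other mice, from which only shares are quoted, were females of both genotypes in cages c and d. They had received dextran sulfate sodium (DSS), which injures the colonic epithelium, at 3% by the labels and 3.5% by the study's methods. Among the water-treated mice, cage a held the 4 males and cage b the 5 females, which means that cage and sex cannot be told apart. Nothing in the labels ties same-numbered mice together, and each mouse is a replicate of its own.

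Plasma cells are the end stage of the B lineage, and in the colon they lie in the lamina propria beneath the epithelium. Most make dimeric IgA, whose monomers are joined by the J chain, and the polymeric immunoglobulin receptor carries it across epithelial cells into the lumen. Antibody secretion needs a large endoplasmic reticulum (ER), built under the transcription factor XBP1 and filled with chaperones and disulfide isomerases. Plasma cells do not belong to the epithelium, and EpCAM marks epithelial cells.

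The share ran from 1.70% to 49.0% without a wide gap. In the low class it was 1.70% in control 3, 8.64% in control 2 and 18.6% in knockout 1. In the high class it was 21.0% in knockout 3, 22.0% in knockout 5, 25.7% in control 1, 32.2% in control 4, 36.9% in knockout 4 and 49.0% in knockout 2. The mice just inside and just outside the threshold, at 21.0% and 18.6%, lay closer to each other than to the extremes of their own classes. After DSS the share was 0.0269% to 0.375% in 6 mice and 2.32% in knockout 3 of that treatment, on a table that was scaled separately. The DSS-treated mice were all females of other cages, so treatment and cage cannot be told apart.

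**Figure D1:**
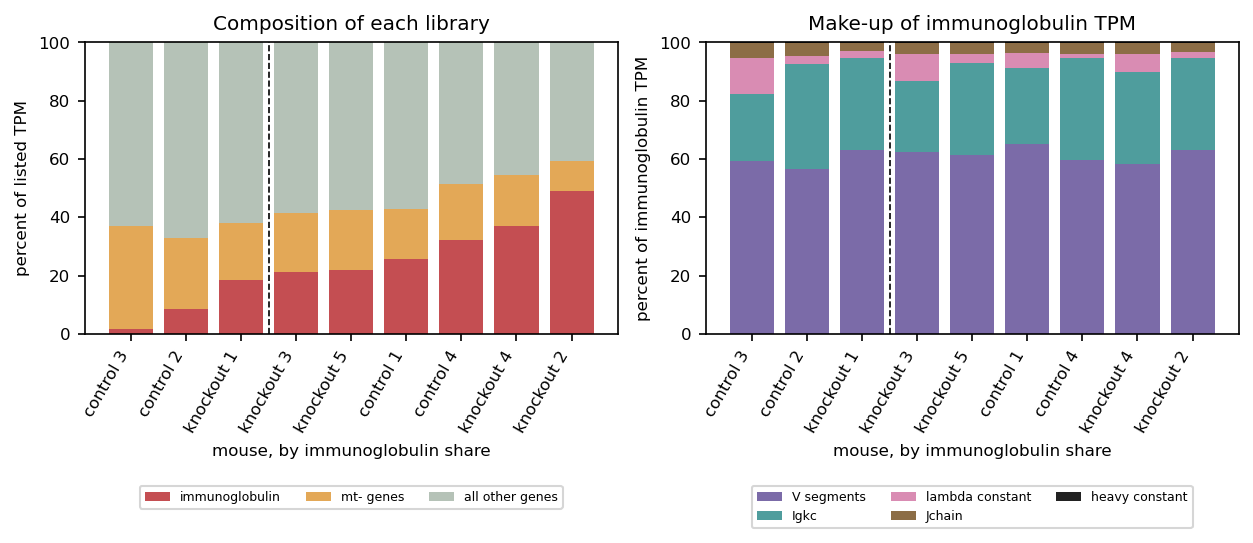
Left, percent of all listed TPM from immunoglobulin, mitochondrially encoded (mt-) and all other genes in each of the 9 mice, ordered by immunoglobulin share, with a dashed line at the 20% threshold. Right, the make-up of the immunoglobulin TPM of the same mice in percent; the heavy constant regions, at most 0.286%, are too thin to see.

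Mitochondrially encoded transcripts held their largest part of the TPM in control 3, the mouse with the smallest share. They made up 35.1% of TPM in control 3, 24.2% in control 2 and 19.2% in knockout 1, against 10.4% to 20.6% (median 18.4%) in the high class. Outside the immunoglobulin genes they were 35.7%, 26.5% and 23.7% of TPM in the low class and 20.4% to 28.4% (median 26.1%) in the high class, so that control 3 stood above the 8 other mice. The other genes were therefore compared after division by the TPM outside immunoglobulin and mt- genes, scaled to a total of 1000000, which is called rescaled TPM below. The TPM left in that denominator was alike, at 327171 to 371739 in the low class and 327246 to 363232 in the high class. The deposited values had been scaled by treatment, and total listed TPM ran from 487469 to 861109. The likeness is therefore not read as a property of the mice. Whether the mitochondrial share of control 3 has a part in the results below was not tested, and values without this mouse are given where it decides them.

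Light chains and variable segments supplied nearly all of the immunoglobulin TPM. Variable segments were 56.7% to 65.3% of it in the 9 mice, and *Igkc*, the kappa constant region, was 22.8% to 35.7%. Variable and constant genes are separate entries, so an antibody transcript can count in both, and the share is not a fraction of RNA molecules. Constant genes and *Jchain* alone made up 0.693% to 6.89% of TPM in the low class and 7.90% to 18.1% in the high class. *Igkc* itself read 2093 TPM in control 3, 15046 TPM in control 2 and 35298 TPM in knockout 1, and 31727 to 133382 TPM (median 58828 TPM) in the high class, so the classes overlapped in this gene. Deposited *Jchain* was 465 TPM in control 3, 1906 TPM in control 2 and 3374 TPM in knockout 1, and 4923 to 13800 TPM (median 7031 TPM) in the high class. *Jchain* thus separated the classes, as a gene that the rule counted.

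The lambda chains varied from mouse to mouse apart from the share. Lambda constant regions were 12.5% of immunoglobulin TPM in control 3, 9.20% in knockout 3 and 6.13% in knockout 4, and 1.39% to 5.02% in the other mice. *Iglc1* reached 16982 TPM in knockout 4 and 11359 TPM in knockout 3, but 962 TPM in control 4, whose share lay between theirs. Single variable genes held a large part of the segment TPM in some mice. *Iglv1* made up 28.7% of it in control 3 and 19.1% in knockout 3, and *Igkv5-43* 20.2% in knockout 2. The number of immunoglobulin genes with at least 1 TPM was 94 in control 3 and 150 to 170 in the 8 other mice.

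Heavy constant regions were only 0.0390% to 0.286% of immunoglobulin TPM. *Igha*, the constant region of IgA, read 7.35 TPM in control 3, 24.5 TPM in control 2, 27.5 TPM in knockout 1 and 42.5 to 116 TPM (median 64.3 TPM) in the high class. The deposited table lists the 2540-nt *Igha* transcript and not the shorter one of 1100 nt, and the 1698-nt *Ighm* transcript and not that of 1493 nt. The share hence leaves out heavy-chain reads assigned to the unlisted transcripts, and antibody classes could not be compared. *Ighm* and *Ighd*, which mature B cells express together, were highest in control 1, at 54.5 TPM and 13.6 TPM, against 11.0 to 34.9 TPM and 0.451 to 5.19 TPM in the 8 other mice.

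The share overlapped between the genotypes and between the cages, and since it chose the classes no test of it is given. It averaged 29.5% ± 13.1 (SD, n = 5) in the mice labelled knockout and 17.1% ± 14.3 (n = 4) in the controls, a difference of 12.5 percentage points that ran from 7.34 without control 3 to 17.5 without control 4. It was 7.58 without knockout 2. Both genotypes were found in both classes, with 2 controls and 1 knockout mouse in the low class. Between the cage of females and the cage of males the means were 24.1% ± 11.0 (n = 5) and 23.8% ± 19.6 (n = 4), a difference of 0.379 points. Within cage a the share was 25.7% and 1.70% in the controls and 18.6% and 49.0% in the mice labelled knockout. Within cage b it was 8.64% and 32.2% in the controls and 21.0%, 36.9% and 22.0% in the mice labelled knockout, so the genotypes overlapped in both cages. *Tnfrsf1b*, the gene for TNFR2 that the Cre targets, read 38.2, 47.1, 32.6 and 47.4 rescaled TPM in controls 1 to 4 and 30.6, 28.8, 25.4, 42.1 and 39.5 in knockouts 1 to 5. The genotypes overlapped, so this value, from 1 listed transcript of 2 annotated, did not separate the mice labelled knockout. In the floxed allele exon 2 alone is flanked, and a TPM per transcript does not resolve exons. The study reported reduced TNFR2 in EpCAM+ cells of such mice by flow cytometry, with similar results by RT-qPCR. By class *Tnfrsf1b* read 30.6 to 47.1 in the low and 25.4 to 47.4 in the high class, which overlapped as well.

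Genes of plasma cells followed the share over its whole range. This is given as a description, since these genes come from the cells that carry the immunoglobulin RNA. *Mzb1*, an ER protein that helps assemble secreted antibody, read 26.0 rescaled TPM in control 3, 161 in control 2 and 222 in knockout 1, and 380 to 1010 (median 555) in the high class. *Tnfrsf17*, the plasma cell survival receptor BCMA, read 1.86, 29.0 and 43.8 in the same low mice and 48.7 to 121 (median 83.2) in the high class. *Cd79a*, the signalling chain of the B cell receptor, read 21.0, 35.1 and 85.7 against 89.3 to 261 (median 161). None of the 3 overlapped between the classes, and knockout 1 was in each case the highest of the low mice, as it was in share.

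The log2 difference between the class means of log2(rescaled TPM + 1), high minus low, was 2.51 ± 0.61 (SE) for *Mzb1*, 2.35 ± 0.75 for *Tnfrsf17* and 1.89 ± 0.44 for *Cd79a*. *Cd79b*, its partner chain, differed by 2.81 and *Eaf2*, an elongation factor partner, by 3.14, but *Eaf2* was at 0 in both control 3 and knockout 1. *Pou2af1*, the B cell coactivator OBF1, differed by 2.02 and *Slamf7*, a receptor of plasma cells, by 1.88. *Xbp1* read 277, 397 and 492 rescaled TPM in the low class and 579 to 1222 (median 709) in the high class, a log2 difference of 0.99. *Sdc1*, the plasma cell antigen CD138 that colonic epithelium also carries, was 249 to 278 in the low class and 291 to 392 in the high class, and differed by 0.30.

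Of the 33 genes in the list of B and plasma cell genes, 27 reached a mean of 1 rescaled TPM, and 6, among them *Pax5*, *Cr2* and *Derl3*, did not. Among the 27, 10 did not overlap between the classes, all higher in the high class, where 2.20% of all 12650 genes tested were higher without overlap and 1.46% lower. Their median log2 difference was 0.99, beside -0.00 over all genes tested. The libraries were chosen by RNA from these cells, and nothing is read from the count. Summed over the list, rescaled TPM was 860 in control 3, 1356 in control 2 and 1578 in knockout 1 and 1993 to 4371 (median 2689) in the high class. In bulk RNA, more plasma cells and more RNA per plasma cell cannot be told apart.

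Some genes of mature B cells, picked from the B and plasma cell list after their values were seen, had their highest level in another mouse than the plasma cell genes. *Ms4a1*, the antigen CD20, read 2.75, 1.27 and 1.93 rescaled TPM in the low class and 0 to 17.0 in the high class. *Fcer2a* (CD23) read 2.68 to 3.93 in the low class and 2.37 to 3.11 in 5 mice of the high class, and 14.2 in control 1. *Cxcr5*, the follicle homing receptor, and *Blk*, a B cell kinase, were likewise highest in control 1, at 10.1 and 10.9, against 0.964 to 4.11 and 0.498 to 3.77 in the 8 other mice. Control 1 was thus the library with the most *Ms4a1*, *Fcer2a*, *Cxcr5*, *Blk*, *Ighm* and *Ighd*, while its immunoglobulin share of 25.7% was the fourth highest of the 9. The slopes on the share, explained below, were 0.18 ± 0.23 for *Ms4a1*, -0.02 ± 0.14 for *Fcer2a*, 0.15 ± 0.16 for *Cxcr5* and -0.09 ± 0.19 for *Blk*. Other B cell members of the list differed from these: *Cd79b* had a slope of 1.07, and *Tnfrsf13c*, the BAFF receptor, had a slope of 0.47 ± 0.12 and was highest in knockout 2, the mouse with the largest share, at 24.7.

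**Figure D2:**
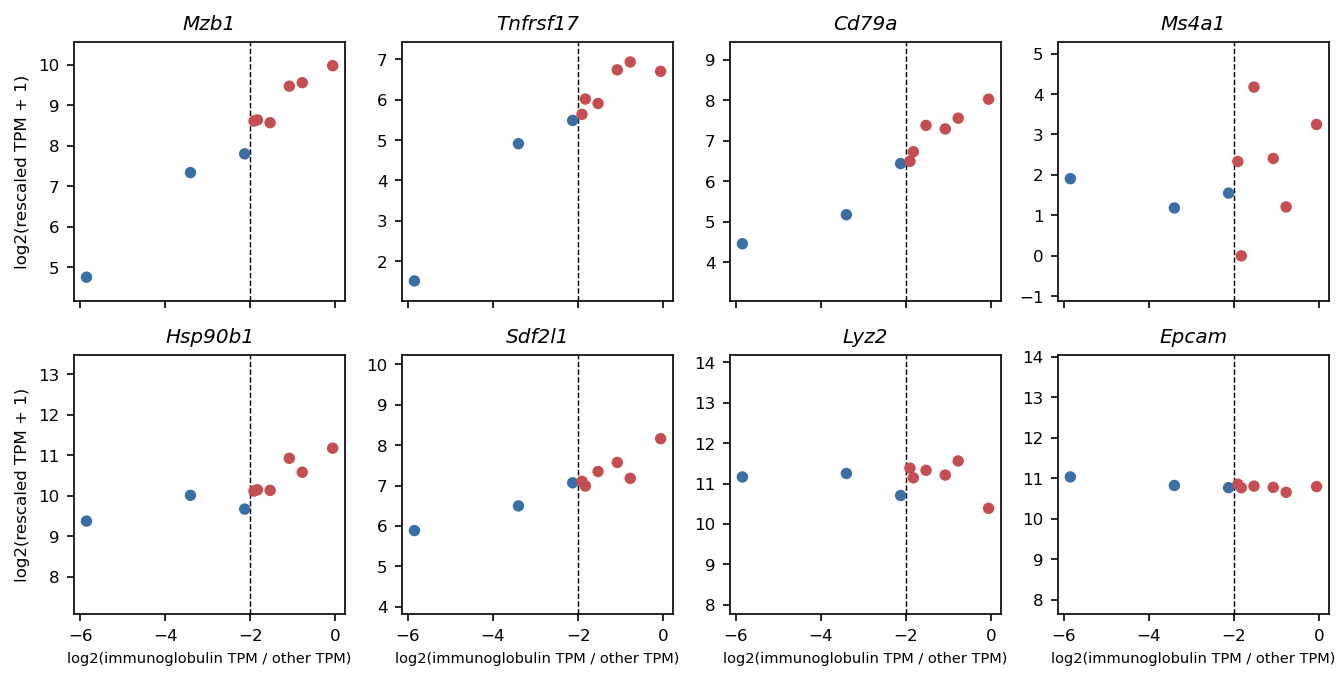
Log2(rescaled TPM + 1) of 8 genes in each of the 9 mice against the log2 ratio of immunoglobulin TPM to all other TPM; blue, low class; red, high class; dashed line, a share of 20%. *Mzb1*, *Tnfrsf17* and *Cd79a* climb along the whole axis and *Hsp90b1* and *Sdf2l1* more shallowly, whereas *Ms4a1*, *Lyz2* and *Epcam* do not; vertical axes differ between panels.

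The same genes were set against the share as a continuous measure, with a slope in log2(rescaled TPM + 1) per unit of the log2 ratio of immunoglobulin to other TPM. A slope of 1 would be a level proportional to that ratio. The slope was 0.91 ± 0.05 (SE, n = 9) for *Mzb1*, 0.94 ± 0.08 for *Tnfrsf17*, 0.75 ± 0.06 for *Pou2af1*, 0.66 ± 0.06 for *Cd79a* and 0.35 ± 0.04 for *Xbp1*. Without control 3, the mouse farthest out on the axis, the slopes were 0.86, 0.65, 0.72, 0.86 and 0.49.

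ER chaperones and folding enzymes had higher means in the high class in most cases. Of 22 genes, all tested, 10 did not overlap between the classes, all higher in the high class (background 2.20%), and 20 had a positive difference. The median log2 difference was 0.39, beside -0.00 over all genes, and none passed the test of the classes at an adjusted p under 0.05. *Hsp90b1*, the ER chaperone GRP94, read 662, 1030 and 813 rescaled TPM in control 3, control 2 and knockout 1 and 1108 to 2311 (median 1331) in the high class. *Pdia4* read 162, 209 and 210 against 253 to 564 (median 302), and *Pdia6* 188, 295 and 284 against 328 to 518 (median 374); both are protein disulfide isomerases. *Edem1*, which directs misfolded glycoproteins to degradation, read 65.4, 102 and 89.5 against 123 to 236 (median 169). These 4 genes were higher in all 6 mice of the high class than in all 3 of the low class, and knockout 2 was the highest mouse for each.

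Their log2 differences were 0.97 ± 0.26 for *Edem1*, 0.83 ± 0.26 for *Hsp90b1*, 0.79 ± 0.25 for *Pdia4* and 0.63 ± 0.18 for *Pdia6* (limma, adjusted p of 0.393, 0.495, 0.501 and 0.434). *Sdf2l1*, a partner of the chaperone BiP, read 58.1, 89.3 and 133 in the low class and 126 to 285 (median 153) in the high class, and differed by 0.91 with an overlap. *Calr*, *Dnajb11*, *Dnajc3*, *Hyou1*, *Sec61a1* and *Ssr4*, which fold or translocate ER proteins, completed the 10 genes without overlap, with differences of 0.21 to 0.59. *Hspa5* itself, the chaperone BiP, read 1049 to 1478 in the low class and 1122 to 2053 in the high class, a difference of 0.24, and the stress factors *Atf4* and *Ddit3* differed by -0.08 and -0.27.

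With the share as a continuous covariate, *Sdf2l1* (slope 0.35 ± 0.04, limma adjusted p = 0.00631), *Pdia6* (0.23 ± 0.03, adjusted p = 0.00895) and *Edem1* (0.32 ± 0.06, adjusted p = 0.0482) passed the test, 3 of 22 beside 0.569% of all genes. *Hsp90b1* had a slope of 0.28 (limma adjusted p = 0.108). Without control 3 none of these passed, with adjusted p of 0.143, 0.354 and 0.265 for the first 3, while their slopes were 0.44, 0.24 and 0.46. Plasma cells and epithelial cells both express these chaperones, and the source of the difference was not tested. RNA of these genes from plasma cells shares its source with the immunoglobulin RNA. The calls therefore say only that the genes moved with the share.

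Several promoters of this list share the ER stress response element, CCAAT and CCACG 9 bases apart, through which ATF6 and XBP1 act with NF-Y. The windows below show the element in the genes whose values are described here. They were found on either strand in RefSeq promoters of GRCm38.p6, from 250 bases before to 50 after the gene start. Each window has 29 bases, read 5′ to 3′ on the strand that carries the element, with CCAAT and CCACG in capitals.
Hspa5: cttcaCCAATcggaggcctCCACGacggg
Hsp90b1 (far element): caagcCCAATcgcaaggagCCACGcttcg
Hsp90b1 (near element): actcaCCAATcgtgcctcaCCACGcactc
Pdia6: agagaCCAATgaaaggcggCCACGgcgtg
Canx: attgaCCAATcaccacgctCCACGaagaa
Dnajc3: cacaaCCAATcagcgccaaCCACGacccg
Calr: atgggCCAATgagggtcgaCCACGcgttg
They lie, in this order, at chr2:34772020-34772048 (+), chr10:86705633-86705661 (-), chr10:86705528-86705556 (+), chr12:17266486-17266514 (+), chr11:50325795-50325823 (-), chr14:118937822-118937850 (+) and chr8:84847070-84847098 (+). All are upstream of the gene start, by 46 bases for *Hspa5*, 193 and 88 for *Hsp90b1*, 79 for *Pdia6*, 126 for *Canx*, 86 for *Dnajc3* and 143 for *Calr*.

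The element was present in 6 of the 18 genes of the list with a promoter in the table. Counted by promoter and not by gene, it was in 39 of all 32851 (0.119%). The list holds genes of the unfolded protein response, so these counts say nothing about the share. *Hspa5* and *Canx*, with log2 differences of 0.24 and 0.17, carry the element, whereas *Sdf2l1* and *Edem1*, with larger differences, had no match in this window. In the B and plasma cell list *Creld2* and *Derl3* had it, 2 of 25 genes. *Creld2*, an ER protein, differed by 0.99. Among the genes called with the continuous covariate that had a promoter, it was in 1 of 55, *Pdia6*.

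Across all genes, the test of the high against the low class called few. Of 12650 genes, 3 (0.0237%) were called higher in the high class and 1 (0.00791%) lower by limma at a Benjamini-Hochberg adjusted p under 0.05, and 916 had an unadjusted p under 0.05. The 4 genes were *Dek*, *Srrd*, *Ttc17* and *Ip6k2*, and none was in the B and plasma cell list. The count was 14 without control 2, 9 without knockout 4, 2 without knockout 3 and 1 without control 4. With genotype and cage as covariates no gene was called (smallest limma adjusted p = 0.122, 752 genes at an unadjusted p under 0.05).

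*Dek* (ENSMUSG00000021377, chr13:47084775-47106201 of GRCm38, minus strand), a chromatin protein, read 0.000631, 5.40 and 0.0396 rescaled TPM in control 3, control 2 and knockout 1 and 28.1 to 80.9 (median 66.2) in the high class. Its log2 difference was 4.98 ± 0.58 (limma adjusted p = 0.0233). *Srrd* (ENSMUSG00000029346, chr5:112337392-112343040) was listed at 0 in all 3 low mice and at 7.13 to 17.5 (median 13.8) in the high class, with a limma adjusted p of 0.00395. *Ttc17* (ENSMUSG00000027194, chr2:94300767-94406689) was at 0.101 or less in the low class and at 4.67 to 16.6 (median 9.42) in the high class (3.26 ± 0.37, limma adjusted p = 0.0233). *Ip6k2* (ENSMUSG00000032599, chr9:108783796-108806337), an inositol hexakisphosphate kinase, read 4.61, 6.74 and 4.86 in the low class and 3.7e-07 or less in the high class (-2.66 ± 0.30, limma adjusted p = 0.0233). For *Srrd*, *Ttc17* and *Ip6k2* 1 class was at or near 0, and these 3 reached the minimum mean of 1 rescaled TPM only through the other class. *Dek* was near 0 in control 3 and knockout 1 but not in control 2. It too reached that minimum only through the high class, since its low-class values were too small to bring the mean over both classes there. The filter took that mean without regard to class, and with no filter on low values 2 genes were called.

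**Figure D3:**
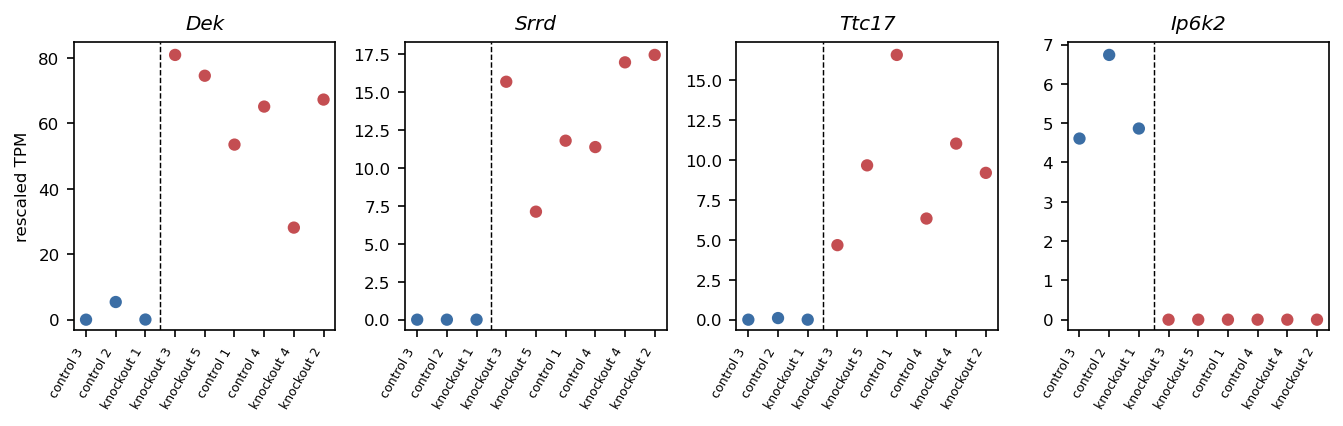
Rescaled TPM of the 4 genes called between the classes in each of the 9 mice, ordered by immunoglobulin share (blue, low class; red, high class; dashed line, the 20% threshold). The classes do not overlap in any of the 4 genes; all low mice of *Srrd* and *Ttc17* and all high mice of *Ip6k2* lie at or near 0, while *Dek* reaches 5.40 in control 2 of the low class.

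These 4 values belong to listed transcripts that share almost all of their sequence with unlisted ones. Of the 31-base words by which kallisto assigns reads, 0% of those of the listed *Dek* transcript occur in no other transcript of the gene (7 transcripts are annotated), 4.54% for *Srrd* (6), 0.0219% for *Ttc17* (6) and 3.25% for *Ip6k2* (12). Reads assigned to the unlisted isoforms are not in the table, so a gene's total and a shift between its isoforms cannot be told apart. By contrast the figure was 100% for *Cd79a*, *Tnfrsf17* and *Sdf2l1*, each with 1 annotated transcript, 54.2% for *Mzb1* and 43.3% for *Pdia6*. *Edem1* had 0.518%, *Sgta* 0.103%, and *Epcam* and *Cd79b* 0%. Of the 77 genes called with the continuous covariate, described below, 32 had a listed transcript under 10%, so the same limit holds for them.

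The largest differences among the other genes without overlap were of the same kind in part. *H2-Q7* (log2 difference 3.88), a class I MHC gene, *Sgta* (3.47), a cochaperone, *Ly6k* (3.29), *Abhd14a* (3.18), *Nudt16l1* (2.91), *Rnf111* (2.89), a ubiquitin ligase, and *Ly6c2* (2.84) were higher in the high class with adjusted p between 0.142 and 0.386. All but *Ly6c2* were at or under 0.01 rescaled TPM in control 3. *Ly6c2*, a Ly6 surface antigen, instead had graded levels, at 28.2 in control 3, 222 in control 2 and 368 in knockout 1 and at 504 to 1827 in the high class. *Phf23* (-3.45), *Mocs2* (-2.70), *Gnb5* (-2.60), *Aen* (-2.47), *Gtpbp2* (-2.22), *Tepsin* (-2.10), *Nek3* (-1.88), *Exosc4* (-1.70) and *Cox6b2* (-1.68) were lower without overlap, with adjusted p between 0.380 and 0.831. *Gtpbp2*, for example, read 106 to 128 in the low class and 33.6 to 79.5 in 5 mice of the high class, but 5.26e-08 in control 4.

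The continuous covariate called other genes. It called 72 genes with a positive slope (0.569% of 12650) and 5 with a negative slope (0.0395%), and 1284 had an unadjusted p under 0.05. None of these 77 was among the 4 called between the classes. Of the 77, 9 were in the B and plasma cell list, 4 in other lists and 64 in none. The 9 share their source with the immunoglobulin RNA, so their calls are a description and nothing is read from them. How many of the others come from the same cells was not tested. The count rested on control 3: without it 5 genes were called, all of them among the 77. They were *Lax1*, *Edem2* and, from the B and plasma cell list, *Mzb1*, *Cd79a* and *Xbp1*. The count was 46 without control 1, 47 without control 4 and 41 with genotype and cage as covariates. The slope kept its sign in 76 of the 77 without control 3, and *Gnrh1* then fell below the minimum level.

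The genes named next were chosen from the 77 after their values were seen, for what they are known to do. Those expressed by plasma cells, here and in the next paragraph, share a source with the immunoglobulin RNA. Their p-values say only that they moved with the share. *Lax1*, an adaptor that limits antigen receptor signalling, had a slope of 0.83 ± 0.05 (limma adjusted p = 7.78e-05, 0.76 without control 3) and read 2.73 rescaled TPM in control 3 and 94.2 in knockout 2. *Cd69*, a lymphocyte activation and retention antigen, had a slope of 0.60 ± 0.04, and *Ccr10* (0.60) and *Itgb7* (0.55) are homing receptors of gut IgA plasma cells. *Ikzf3*, the B lineage factor Aiolos, had a slope of 0.52 and *Bhlha15*, the secretory cell factor MIST1, 0.48. Also called were *Gimap1* (0.73), *Gimap4* (0.68), *Spn* (0.66), *Gimap8* (0.63), *Gpr171* (0.63) and *Cd52* (0.35), which are not particular to plasma cells. The genes named by function thus do not stand for all 77.

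Genes of the secretory route and of amino acid supply were also among them. *Edem2*, a trimming enzyme of misfolded glycoproteins, had a slope of 0.44 ± 0.04 (limma adjusted p = 0.00138, 0.57 without control 3). *Txndc5* (0.36) and *Prdx4* (0.35) take part in disulfide formation, *Sec11c* (0.27) is a signal peptidase subunit, *Serp1* (0.25) stabilises membrane proteins at the translocon and *Lman1* (0.25) is a cargo receptor between ER and Golgi. *Slc3a2* (0.37), the heavy chain of amino acid transporters, *Phgdh* (0.54), the first enzyme of serine synthesis, and *Pycr1* (0.57), of proline synthesis, rose as well. With control 3 left out, *Edem2* alone of these 9 passed the test, while the slopes lay between 0.25 and 0.59.

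The 5 genes with negative slopes were *Gnrh1* (-0.89), *Vsig4* (-0.52), a complement receptor of resident macrophages, *Fcna* (-0.27), a ficolin, *Tppp3* (-0.21) and *Hk2* (-0.18), a hexokinase. Control 3 was the highest mouse for *Vsig4* (53.0 rescaled TPM), *Fcna* (231), *Tppp3* (509) and *Hk2* (209). None of the 4 that could be refitted passed the test without it.

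Of other cell types, macrophage genes were plentiful in the sorted cells, and their summed level overlapped between the classes. *Lyz2*, lysozyme of myeloid cells, read 2290, 2431 and 1666 rescaled TPM in control 3, control 2 and knockout 1 and 1338 to 3012 (median 2466) in the high class. Summed over the list of 18 macrophage and dendritic cell genes the level was 4768 to 6914 in the low class and 3830 to 8700 (median 6948) in the high class. No member was called, and 1, *Cd209a*, a dendritic cell lectin, did not overlap (background 2.20%), at 3.59, 21.6 and 18.4 against 25.3 to 63.2. *Aif1* (2.13), *Cx3cr1* (1.05) and *Tyrobp* (0.81) had the next largest differences and overlapped. Of the 18 genes 16 had a positive difference, with a median of 0.22 that was -0.03 without knockout 1 and 0.33 without knockout 2, and the median slope was -0.03.

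T cell genes were low throughout. The list summed to 74.9 to 109 rescaled TPM in the low class and 95.3 to 222 (median 132) in the high class, and *Cd3e*, a defining chain of the T cell receptor complex, read 0.908 to 2.50 and 0 to 6.57. Of 24 genes 16 were tested, none was called, and *Cd2* was the single gene without overlap (background 2.20%), at 12.0, 12.8 and 21.3 against 29.4 to 70.2. *Cd2* encodes an adhesion receptor of lymphocytes. *Cd3g* (0.98), *Itgae* (0.84) and *Gzma* (0.80) overlapped between the classes, and the list's median difference was 0.27.

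Granulocyte and mast cell genes summed to 65.4 to 116 rescaled TPM in the low class and 74.5 to 221 in the high class, and 12 of 13 were tested. *Prg2*, the eosinophil major basic protein, which plasma cells can also express, had a slope of 0.72 ± 0.13 (limma adjusted p = 0.0408). It read 1.79, 8.23 and 18.3 against 10.6 to 74.7, while the eosinophil peroxidase gene *Epx* was at 0 in all 9 mice. *Prg2* was the single member called with the continuous covariate, beside 0.569% of all genes with a positive slope. Without control 3 it did not pass, with a slope of 0.73. *S100a8* (1.52), *Kit* (1.39) and *Retnlg* (1.16) differed by amounts inside their spread, and no member was called between the classes or without overlap.

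Fibroblast genes were lower on balance: 11 of 14 tested had a negative difference, with a median of -0.41, and none was called or without overlap. The median was -0.25 without knockout 2 and -0.79 without knockout 1. *Col6a2* (-0.71), *Col1a1* (-0.63) and *Col3a1* (-0.60), collagen genes, had the largest negative values and *Sparc* (0.77) the largest positive one. *Col3a1* read 391, 452 and 253 in the low class and 127 to 360 (median 239.8) in the high class. Endothelial genes had a median of 0.04 over 11 members. *Lyve1*, of lymphatic endothelium and some macrophages, read 174 in control 3 and 27.2 in knockout 2, and differed by -0.86. *Tek* (1.11), *Pecam1* (-0.79) and *Esam* (-0.51) followed.

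The epithelium itself differed little. *Epcam*, on which the cells had been sorted, read 2094, 1809 and 1742 rescaled TPM in the low class and 1608 to 1847 (median 1763) in the high class, with a log2 difference of -0.10 ± 0.09 (limma adjusted p = 0.888). Of 20 epithelial identity genes 16 had a negative difference, with a median of -0.17, none was called, and *Krt18*, a simple epithelial keratin, and *Vil1*, the villin of the brush border, were lower without overlap (background 1.46%). *Krt18* read 1792, 2015 and 1812 against 1474 to 1658, a difference of -0.24, and *Vil1* 516, 538 and 485 against 400 to 479, a difference of -0.25. *Cldn4* (-0.76) and *Elf3* (-0.36), a tight junction protein and an epithelial factor, had larger differences with an overlap, as did *Tjp1* (-0.28). *Phgr1* (3.04) was near 0 in control 2 alone. *Krt18*, *Vil1* and *Epcam* are read against a denominator that plasma cell RNA outside the immunoglobulin genes also enters, and its part was not tested.

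*Pigr*, the receptor that carries IgA across the epithelium, did not differ detectably. It read 2396, 2433 and 3139 rescaled TPM in the low class and 2254 to 3272 (median 2787) in the high class, a log2 difference of 0.07 ± 0.13 (limma adjusted p = 0.966). Of the 14 genes of IgA transport and plasma cell support none was called or without overlap, and the median was 0.06. *Ccl28*, the epithelial ligand of CCR10, read 106, 83.5 and 87.4 in the low class and 79.2 to 100 in the high class, and *Tnfsf13*, the survival factor APRIL, read 34.7 to 58.2 and 32.1 to 57.9. The largest values were those of *Ccl25* (1.18), *Ccl20* (-0.93), *Aldh1a3* (-0.76) and *Tnfsf13b* (-0.37), all under 20 rescaled TPM.

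**Figure D4:**
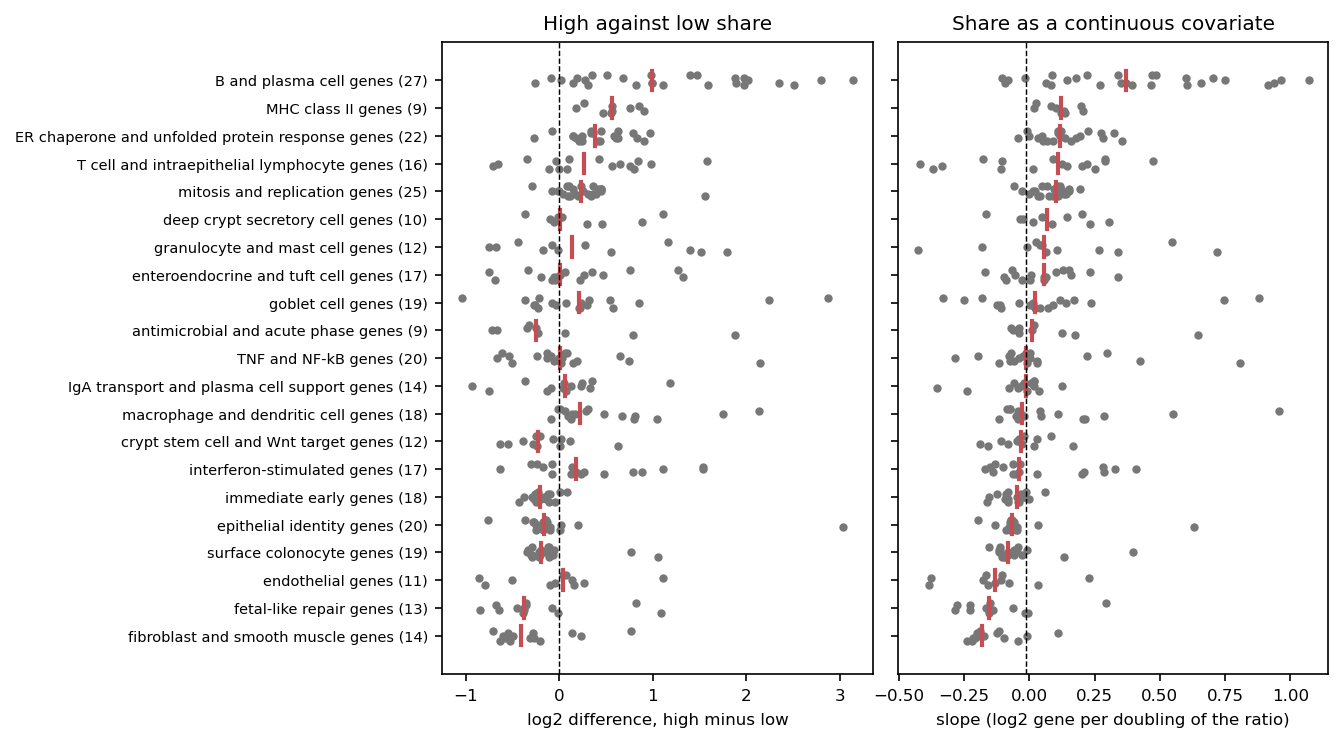
Log2 difference between the classes (left) and slope on the share (right) for each tested member of the 21 gene lists, with the number of members in parentheses; red bars are list medians and the dashed line is the median of all 12650 genes. The B and plasma cell list has the highest medians, 0.99 and 0.37, and the fibroblast list the lowest, -0.41 and -0.18.

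Secretory lineages of the crypt showed a wide spread that cut across the classes. *Retnlb* and *Ang4*, goblet and deep crypt cell products active against microbes, read 55.5 and 160 rescaled TPM in control 3 and 12.7 and 33.0 in control 2, but 1007 and 2024 in knockout 1, within the ranges of 249 to 1833 and 399 to 2380 in the high class. Their differences of 2.88 and 2.24 thus rested on 2 of the 3 low mice. *Clca1* (0.85) overlapped as well, and so did *Sytl2* (-1.04). Of 19 goblet cell genes none was called or without overlap, with a median of 0.21. Among 10 deep crypt secretory genes *Slc12a8* (1.11), a transporter, was the single member without overlap (background 2.20%), at 20.3 to 31.3 against 40.2 to 76.8, and *Mptx1* (0.88), *Reg4* (0.45) and *Galnt12* (-0.37) overlapped. The list's median was 0.01.

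Absorptive, endocrine and stem cell lists gave no called gene. Surface colonocyte genes had a median of -0.19 over 19 members, 17 of them negative. The median was 0.01 without control 3 and -0.345 without control 2, and the median slope was -0.08, or 0.04 without control 3. Among them were *Slc26a3*, the chloride exchanger, at 316 to 505 against 264 to 354 (-0.34), and *Dmbt1* (1.06), *Aqp8* (0.76) and *Atp12a* (-0.34) widely scattered. The 17 enteroendocrine and tuft cell genes had a median of 0.01, with *Il25* (1.32), *Resp18* (1.27), *Scg5* (-0.76) and *Plcb2* (0.75) farthest from 0. The 12 stem cell and Wnt target genes had a median of -0.23, and *Ascl2* (-0.63), *Lrig1* (-0.55) and *Axin2* (-0.39) overlapped, while *Znrf3* (0.62) was higher without overlap (background 2.20%) at 2.48 to 2.63 against 3.22 to 7.17. Of 25 mitosis and replication genes 21 had a positive difference, with a median of 0.24 that was 0.05 without control 3 and 0.475 without control 2. Their median slope was 0.10, and -0.03 without control 3. *Aurka* (1.56), *Cdc20* (0.45), *Rrm2* (0.45) and *Ccna2* (0.45) led the list, and *Mcm2*, a replication helicase subunit, was the single gene without overlap, 1 of 25 beside the background of 2.20%.

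MHC class II genes were all higher on average in the high class, 9 of 9 tested, with a median of 0.56 and an overlap in every gene. *H2-Ab1* read 980 in control 3, 1401 in control 2 and 1341 in knockout 1 and 1150 to 2255 (median 1996) in the high class, where knockout 2, the mouse with the largest share, was the lowest. Their median slope was 0.12, and 0.01 without control 3. *Ciita* (0.91), the class II transactivator, *H2-Ob* (0.85), *H2-Oa* (0.76) and *H2-DMb1* (0.56) had the largest differences. B cells, dendritic cells and macrophages express these genes, and colonic epithelium can.

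The remaining lists held no called gene and no gene without overlap. Interferon-stimulated genes had a median of 0.18 over 17 members, led by *Ifit3* (1.54), *Isg15* (1.53), *Bst2* (1.10), which plasma cells also express, and *Cxcl10* (0.88). Antimicrobial and acute phase genes had a median of -0.25 over 9, with *Slpi* (1.88) at 8.86, 62.3 and 31.2 against 54.0 to 198, and *Reg3b* (0.79), *Defb45* (-0.72) and *Nos2* (-0.67) at low levels. Immediate early genes were negative in 16 of 18, with a median of -0.21 and *Egr1* (-0.43), *Klf4* (-0.38), *Hspa1b* (-0.30) and *Zfp36* (-0.27) farthest from 0. TNF and NF-kB genes had a median of 0.00 over 20, with *Ripk3* (2.15), *Nfkb1* (0.75), *Cxcl1* (-0.66) and *Traf1* (0.65) at the ends, and *Ripk3* and *Nfkb1* lowest in control 3. Fetal-like repair genes were negative in 11 of 13, with a median of -0.38, and *Spp1* (1.08), *Ereg* (-0.85) and *Ccn1* (-0.67) were among the largest.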

How the data were processed

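RNA-seq of sorted EpCAM+ distal colonic cells was used from 9 water-treated mice (4 controls, 5 labelled knockout), grouped by their labels and by immunoglobulin share. The authors quantified single 75-base reads, about 10 M per sample by the study's methods, with kallisto and tested genotype with sleuth. The submitters' processing notes name the build mm10; the transcript release is not given in the sources used here. The deposited tables hold TPM per transcript, scaled separately for each treatment, and list principal isoforms only; their p-values, q-values and fold columns were not used. TPM keeps no depth. Of 29373 lines 385 repeats were dropped. TPM was summed by gene symbol, divided by the TPM outside immunoglobulin and mt- genes, and fitted by limma 3.58.1 (trend, R 4.3.3) on log2(rescaled TPM + 1), which understates changes of low genes, for genes with a mean of at least 1. Calls used a Benjamini-Hochberg adjusted p under 0.05; fits were tested on simulated data. Positions are from GENCODE on GRCm38.

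The classes, members and 21 gene lists were chosen with earlier results of these data known. Genes named were *Mzb1*, *Cd79a*, *Jchain*, immunoglobulin constant genes, *Tnfrsf1b*, *Pigr*, *Epcam*, up to 10 called in each direction (filled from genes without overlap and a mean of at least 5) and up to 4 of each list with the largest differences; others were named after their values were seen. A few list members are not reported here. Alternatives were other scalings, a pseudocount of 0.1, no filter or a minimum mean of 5, thresholds of 15% and 25%, covariates, a replicate block, the share as a continuous covariate and leaving out each mouse.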

Additional observations from a re-analysis of the deposited data

Results flagged for a closer look

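The immunoglobulin share of DSS-treated knockout 3, 2.325%, lay far above the 3 other mice of its group. Among the 6 mice of the high class, control 1 stood apart as the highest for the B cell genes *Fcer2a* (14.23 rescaled TPM), *Blk* (10.89) and *Cxcr5* (10.06), and as the lowest for *Rnf111* (0.7431). Knockout 2, with the largest share, was far above the others for *Tnfrsf13c* (24.71), the BAFF receptor, and for the ER chaperone *Hyou1* (199.2), and far below them for *H2-DMb1* (70.0). Knockout 4 was far above the others for *Prg2* (74.69), *Isg15* (45.98) and *Znrf3* (7.174), and knockout 5 for *Tyrobp* (242.3), *Spp1* (13.98) and *Nos2* (2.545). Control 4 was far above the others for *Elf3* (667.2), *Dnajb9* (113.5), *Phf23* (14.12), *Reg3b* (8.98) and *Gnb5* (7.242), and for *Ip6k2* at a level of 3.702e-07 that is 0 in practice. Knockout 3 was far above the others for *Mcm2* (44.96). In all, 21 of 188 groups of values had a mouse this far out. The groups come from the same mice, and the count was not tested against chance.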

How the results depend on the processing

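Over the alternatives, 432 of 440 list medians moved by less than the spread between mice, and the difference in share by genotype kept its direction in all 13 (7.337 to 17.49 points with a mouse left out). The count of 4 genes called between the classes was 2 with TPM as deposited, with no filter on low values and with a minimum mean of 5, 1 with the threshold at 25% or with genotype as covariate, 0 with genotype and cage as covariates and 77 with the continuous covariate, and 1 to 14 with a mouse left out. The 77 became 37 with the share in percent and 41 with genotype and cage, and 5 to 91 with a mouse left out; these alternatives were chosen after seeing the data. A replicate block gave 0 calls in both fits. Over all genes, same-numbered mice did not deviate together (r of -0.03 to 0.05 for the 4 numbers, and 2 of 4 mice correlated best with their own number). The labels do not tie these mice to each other, and why the calls were lost was not tested. The list medians that moved were 0.915 (TPM as deposited) and 1.160 (minimum mean 5) for granulocyte and mast cell genes, -0.481, 0.347, 0.335 and 0.482 with the threshold at 15% for endothelial, deep crypt, enteroendocrine and tuft, and antimicrobial genes, and -0.096 with 25% for goblet cell genes; with a mouse left out the enteroendocrine and tuft median ran from -0.068 to 0.251. Medians of other lists that changed sign with a mouse left out were those of endothelial (-0.409 to 0.141), antimicrobial (-0.46 to 0.107), TNF and NF-kB (-0.14 to 0.147), IgA transport (-0.052 to 0.172), deep crypt (-0.085 to 0.316), macrophage (-0.029 to 0.333) and surface colonocyte genes (-0.345 to 0.013); that of T cell genes ran from 0.031 to 0.559. The share by cage changed sign with mice left out (-6.975 without control 3 to 8.792 without knockout 2). *Tnfrsf1b*, at -0.00, was 0.004 as deposited, 0.067 with mt- genes kept, 0.164 at 25%, 0.115 with genotype and 0.014 with genotype and cage, and -0.115 to 0.186 with a mouse left out. *Pigr* was -0.037 at 25% and -0.002 to 0.192 with a mouse left out. Where no value or construction shows it, the cause was not tested.

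With 6 mice against 3 and a threshold that falls between shares of 18.6% and 21.0%, the classes are cuts of a continuous measure. TPM gives no depth, so precision rests on the number of mice. Genes with several isoforms are read from the listed ones.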
